A study of Mus musculus with 9 samples.

Results

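The collagens measured here were the 42 genes whose single symbol in the annotation of the array is Col, a number, a and a number. They are 42 of 18193 named genes, and 82 of the 45037 probe sets compared carry their symbols. Each gene was followed through its probe set with the highest mean signal over the 9 arrays, and the other 40 probe sets are given where they differ. Of the genes, 15 have 1 probe set and 27 have several. Sorted by structure, 11 were fibrillar, 9 formed networks, 9 were fibril-associated collagens with interrupted triple helices (FACIT), 4 were transmembrane, 5 formed beaded filaments, 1 formed anchoring fibrils, 2 were multiplexins and 1, *Col26a1*, was in none of these classes. *Col6a6*, *Col21a1* and *Col28a1* were not analysed here. The signal is the log2 value that robust multi-array averaging (RMA) gives to a probe set, so that a difference of 1 is a ratio of 2.

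The cells were MC3T3-E1, an established line of preosteoblasts from the calvaria of newborn C57BL/6 mice. All groups were kept for 14 days in medium with ascorbic acid and β-glycerophosphate, reseeded and cultured for 24 h. The groups were 3 arrays of cells at 24 h after low-intensity pulsed ultrasound (LIPUS), 3 arrays at 6 h after LIPUS and 3 arrays of mock-treated control cells, numbered 1 to 3 in each group. LIPUS was given once for 20 min at 30 mW/cm2 and 1.5 MHz through the bottom of the dish. Arrays of the same number were taken as 1 experiment and compared with each other. The time that the mock control spent in culture is not given, so LIPUS and time in culture cannot be told apart. The replicates are arrays of 1 cell line and not animals, which the study describes as repeated experiments, and the labels do not say more of the cultures.

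Collagens are secreted proteins whose chains wind together into a triple helix. Fibrillar collagens assemble into the banded fibrils of bone, skin and cartilage, type I being the main protein of bone matrix and type II that of cartilage. Network collagens build sheets such as basement membranes, FACIT collagens decorate the surface of fibrils, and transmembrane collagens sit in the cell membrane. Chains are hydroxylated and folded in the endoplasmic reticulum, exported, trimmed and cross-linked outside the cell, and removed by collagenases and other proteases.

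The arrays differed by experiment more than by treatment, and their medians over all probe sets ran 4.89 to 4.93 (experiment 1), 5.15 (experiment 2) and 4.97 to 5.01 (experiment 3). Values in experiments 2 and 3 were coarse. At 24 h and in control cells the same value was listed for 3, 20 and 10 of the 42 collagen genes in the 3 experiments by number, against 1.26%, 48.4% and 31.9% of all probe sets. Of the 42 probe sets, 24 lay among the 40% with the highest mean signal of the array and 18 did not. The identity of the cells was checked with a list of osteoblast markers, of which 6 of 10 were measured. *Postn*, *Dlx5* and *Sp7* lay in the upper 40% and *Alpl*, *Ibsp* and *Phex* below it, and none of the 6 changed in any comparison.

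At 24 h after LIPUS 5 collagen genes were higher than in control cells and 1 was lower, and the other 36 did not pass the test. *Col24a1*, *Col11a1*, *Col16a1*, *Col8a1* and *Col4a6* rose by 0.23 to 0.67 on the log2 scale, and *Col2a1* fell by 0.82. These are 14.3% of the family, where 2.73% of all probe sets (1.8% higher, 0.933% lower) and 4.14% of named genes with 1 probe set each were called. Among the 24 collagens in the upper 40% of signal 4 were higher and 1 lower (20.8%), against 7.38% of named genes at that level. The test was limma with the experiment as a block and Benjamini-Hochberg adjustment over 45037 probe sets, at an adjusted p under 0.05. The median log2 fold change was 0.03 over the family and 0.00 over all probe sets. In the 3 experiments the family's median was 0.07, 0.00 and 0.00. Taken by experiment, 10 genes were above control and 3 below it in all 3 experiments, as were 10.3% and 6.84% of all probe sets.

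**Figure D1:**
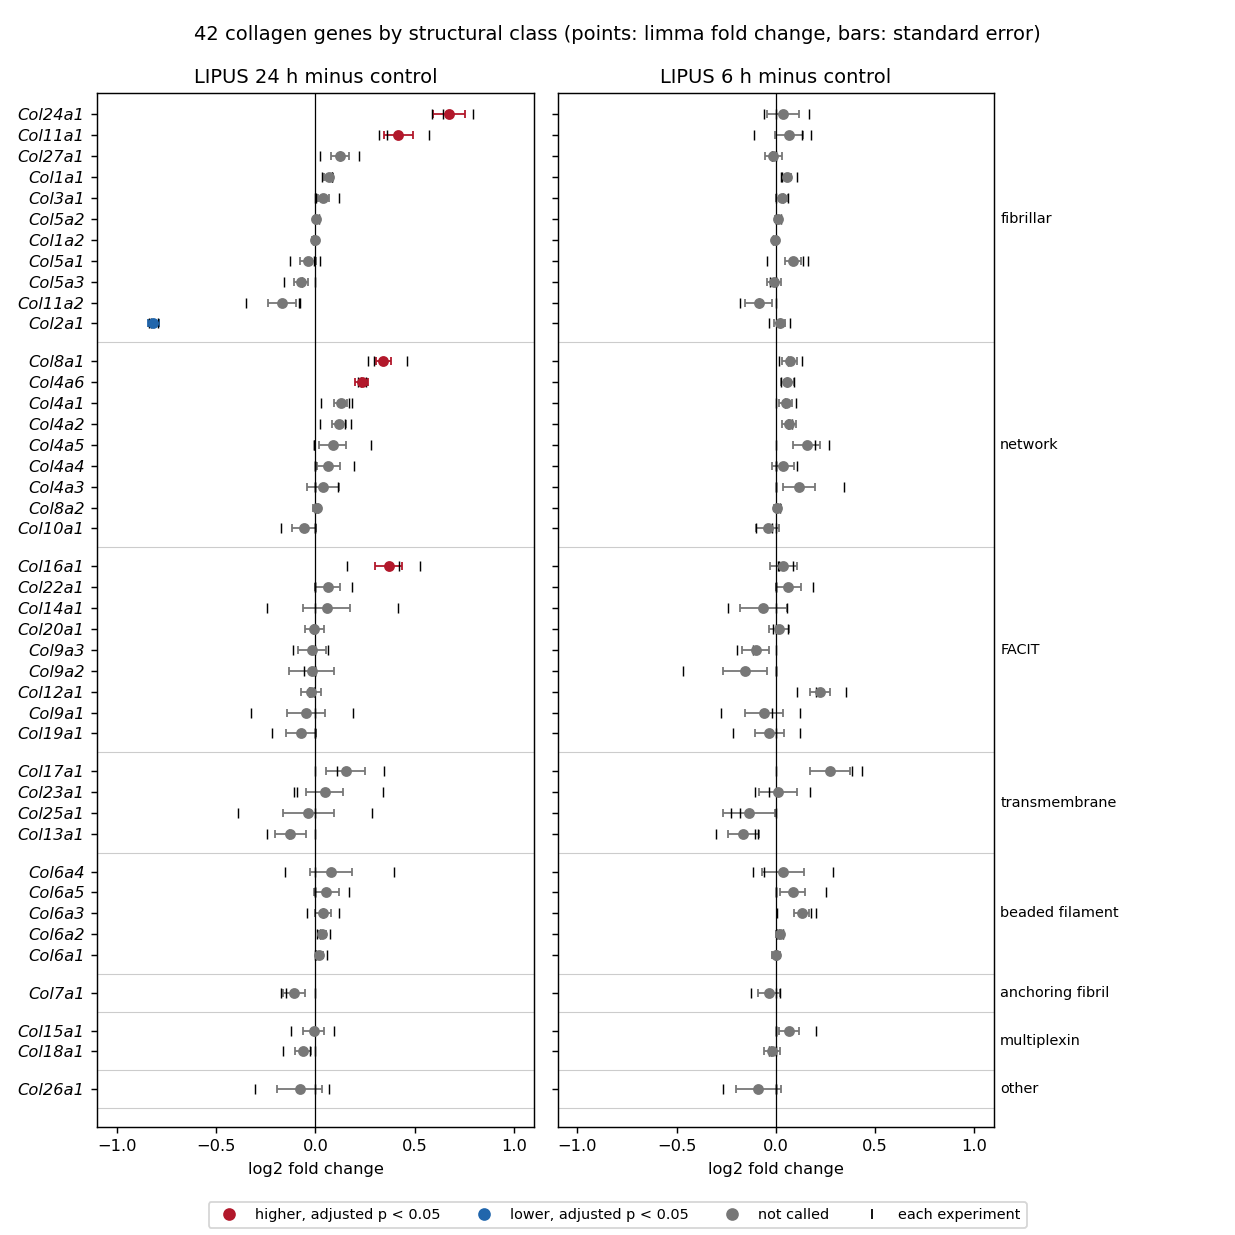
Log2 fold change of each of the 42 collagen genes by structural class at 24 h (left) and 6 h (right) against control, with the limma estimate as a point, its standard error as a bar and the 3 experiments as ticks. At 24 h *Col24a1*, *Col11a1*, *Col8a1*, *Col4a6* and *Col16a1* lie to the right and *Col2a1* to the left, while no point is coloured at 6 h.

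Promoter sequence is shown for the 4 collagens whose every probe set was higher at 24 h, to set side by side genes that moved in one direction. Of these, *Col24a1* and *Col16a1* have only 1 probe set each, *Col11a1* has 2 and *Col8a1* has 3. The windows run from 250 bases before to 10 bases after the RefSeq start site on GRCm38.p6, on the strand of the gene. They are chr3:145292222-145292481 on the plus strand for *Col24a1*, chr3:114030290-114030549 on the plus strand for *Col11a1*, chr4:130047590-130047849 on the plus strand for *Col16a1* and chr16:57754728-57754987 on the minus strand for *Col8a1*. Capitals mark every match on either strand to the cAMP response element TGACGTCA, the CCAAT box CCAAT, the GC box GGGCGG and the TATA box TATAAA.
Col24a1: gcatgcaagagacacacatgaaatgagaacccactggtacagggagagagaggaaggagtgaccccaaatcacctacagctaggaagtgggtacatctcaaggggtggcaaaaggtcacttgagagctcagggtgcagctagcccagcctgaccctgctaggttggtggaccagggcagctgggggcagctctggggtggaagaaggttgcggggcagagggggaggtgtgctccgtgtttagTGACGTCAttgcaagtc
Col11a1: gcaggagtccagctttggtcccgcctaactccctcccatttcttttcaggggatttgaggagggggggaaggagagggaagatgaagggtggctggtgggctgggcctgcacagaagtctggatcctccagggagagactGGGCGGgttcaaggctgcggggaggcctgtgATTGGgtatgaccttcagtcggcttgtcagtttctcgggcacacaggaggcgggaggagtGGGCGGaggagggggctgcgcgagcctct
Col16a1: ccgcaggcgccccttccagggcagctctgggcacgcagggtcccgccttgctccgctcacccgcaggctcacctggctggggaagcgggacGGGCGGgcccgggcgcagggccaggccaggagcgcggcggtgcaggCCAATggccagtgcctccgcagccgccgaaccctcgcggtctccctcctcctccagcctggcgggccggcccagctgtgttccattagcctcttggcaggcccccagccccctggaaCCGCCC
Col8a1: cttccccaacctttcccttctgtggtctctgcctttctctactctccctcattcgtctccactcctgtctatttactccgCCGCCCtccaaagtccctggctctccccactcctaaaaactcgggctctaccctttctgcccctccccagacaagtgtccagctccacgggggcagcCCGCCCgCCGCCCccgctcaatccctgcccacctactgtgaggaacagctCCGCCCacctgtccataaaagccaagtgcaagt
The element TGACGTCA lies at positions -7 to 1 of *Col24a1*, counted from the start site, and was found in 1.67% of 32851 promoters of that length. Among the 33 collagen genes with a promoter in the table *Col24a1* was the one gene with it, and the window was extended past the start site after this match had been seen. GC boxes stand in the windows of *Col11a1* (2 matches), *Col16a1* (2 matches) and *Col8a1* (4 matches), and CCAAT boxes in those of *Col11a1* and *Col16a1*. GC boxes were found in 33.4% of all promoters and in 20 of the 33 collagen genes, CCAAT boxes in 34.6% and in 13, and TATA boxes in 12.7% and in 5. No motif searched was common to the 4 windows, and a match describes letters and not binding.

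Among the fibrillar collagens 2 of 11 rose and 1 fell at 24 h (27.3%, against 4.14% of named genes and 7.38% of those in the upper 40% of signal, where 9 of the 11 lay), with a median log2 fold change of 0.01. *Col2a1*, the chain of type II collagen of cartilage, had the largest change of the family. Its log2 signal was 9.26, 9.42 and 9.04 at 24 h in experiments 1, 2 and 3, against 10.09, 10.21 and 9.88 in control cells. Every array at 24 h was below every control array. The groups did not overlap in 2 collagen genes, *Col2a1* and *Col16a1*, and in 1.47% of all probe sets. The fitted difference was -0.82 ± 0.03 on the log2 scale (standard error, adjusted p = 9e-05) and the ratio to control 0.567 ± 0.0095 (SD, n = 3 experiments). At 6 h the signal was 10.11, 10.28 and 9.84, within 0.07 of the control of its own experiment. *Col2a1* was called with each of the 9 arrays left out in turn, and it lost its call without experiment 1 (-0.81, adjusted p = 0.163 from limma). In that fit none of the 45037 probe sets was called.

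Beside *Col2a1*, 1 of 10 measured chondrocyte markers fell and 9 did not pass (10% called, against 4.14% of named genes). *Cnmd*, which encodes chondromodulin, was the one that fell at 24 h (log2 fold change -0.45, adjusted p = 0.0105 from limma). *Sox9*, the transcription factor that drives *Col2a1* in chondrocytes, had -0.13 (adjusted p = 0.175). The mean log2 signal over the 10 markers was 5.52 to 5.73 on the arrays at 24 h and 5.57 to 5.81 on control arrays. *Acan*, *Matn1*, *Matn3*, *Comp*, *Snorc* and *Ucma* were below the upper 40% of signal. Of 7 epithelial markers *Krt14* (-0.98, adjusted p = 9e-05) and *Cdh1* (-0.75, adjusted p = 0.0198) fell and *Trp63* rose (0.44, adjusted p = 0.0125). That is 42.9% of the list, against 4.14% of named genes and 7.38% of those in the upper 40%, where 3 of the 7 lay. The study lists *Krt14* and *Cdh1* as lower on these same arrays, so they are not independent evidence. The mean over the epithelial list was 5.94 to 6.31 at 24 h and 6.19 to 6.51 in control cells. The part of these markers in the fall of *Col2a1* was not tested. None of the endothelial, macrophage, muscle and adipocyte markers (5, 5, 5 and 4 measured) passed the test. The mean over the 4 adipocyte markers was 3.98 to 4.35 at 24 h and 4.43 to 4.45 in control cells, with no overlap. Their log2 fold changes were -0.63 to -0.05, the lowest being that of *Fabp4*, a fatty acid carrier (adjusted p = 0.321), and 1 of the 4 was in the upper 40% of signal. The part of these markers in the collagen values was not tested either.

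*Col24a1*, which encodes a fibrillar collagen of developing bone in mice, had the largest rise. Its log2 signal was 4.83, 5.39 and 4.50 at 24 h and 4.25, 4.74 and 3.71 in control cells. It was higher in each experiment, by 0.59, 0.64 and 0.79, and the groups overlapped, with experiment 3 lowest in both. On the coarse arrays of experiments 2 and 3 at 24 h, other collagens had the very same values. These were *Col9a1* and *Col20a1* at 5.39 and *Col14a1* and *Col17a1* at 4.50. In experiment 3 the control and 6 h values of *Col24a1* were also identical, at 3.71. The part of this coarseness in the rise was not tested. The fitted difference was 0.67 ± 0.08 on the log2 scale (standard error, adjusted p = 0.00839) and the ratio 1.6 ± 0.119 (SD, n = 3). The signal is low for the array, with a mean of 4.47 that is below the upper 40%, and the gene has 1 probe set. The call was lost without array 2 of the 24 h group (0.67, adjusted p = 0.0638) or array 1 of the control (0.66, adjusted p = 0.0956), and without experiment 1 (0.72, adjusted p = 0.214) or experiment 2 (0.69, adjusted p = 0.199).

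*Col11a1*, a chain of type XI collagen, which starts fibrils and sets their width in cartilage, rose on both of its probe sets. The first had 10.07, 10.36 and 9.92 at 24 h, against 9.75, 10.00 and 9.35 in control cells. Each array at 24 h was above its own control and the groups overlapped. At 6 h it had 9.93, 9.89 and 9.48, on both sides of the controls of the same experiments. The fitted difference was 0.42 ± 0.07 on the log2 scale (standard error, adjusted p = 0.0321) and the ratio 1.34 ± 0.127 (SD, n = 3). The second probe set had 0.33 (standard error 0.03, adjusted p = 0.00386), with 9.89, 10.13 and 9.51 at 24 h and 9.58, 9.83 and 9.13 in control cells. The call of the first probe set held with 1 of 9 arrays left out (array 2 of the 6 h group) and with none of 3 experiments left out. Without the others its fold change was 0.34 to 0.49 and the adjusted p reached 0.246 without array 1 of the control and 0.417 without experiment 1.

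**Figure D2:**
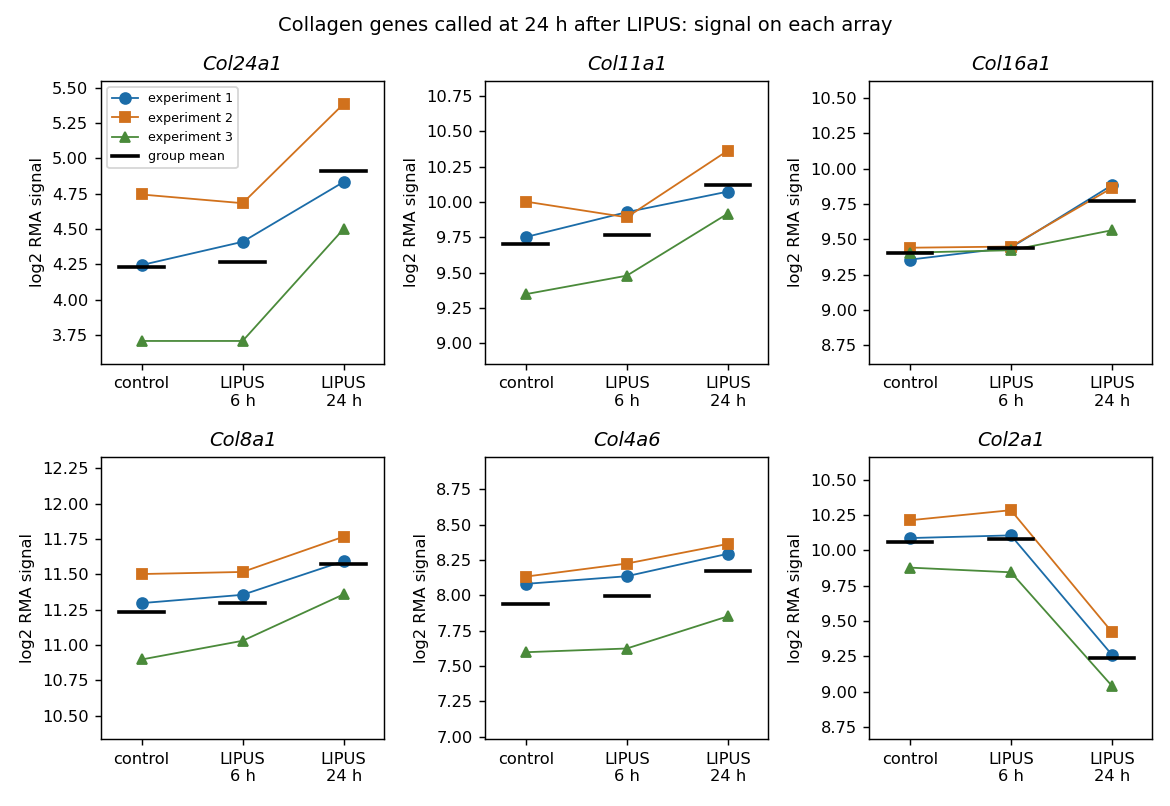
Log2 RMA signal of the 6 collagen genes that changed at 24 h, on each of the 9 arrays, with the arrays of an experiment joined by a line and group means as black bars. At 24 h each line lies below its control for *Col2a1* and above it for the others, and each panel spans 2 log2 units. Some lines also move between control and 6 h, as for *Col11a1*, by 0.18, -0.11 and 0.13 in experiments 1, 2 and 3.

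The chains of type I collagen, the main collagen of bone, did not pass the test. *Col1a1* had 12.87, 12.93 and 12.51 at 24 h and 12.83, 12.84 and 12.43 in control cells. At 6 h it had 12.86, 12.95 and 12.46. At 24 h it was above control in all 3 experiments, by a mean ratio of 1.05 ± 0.0213 (SD, n = 3), and the fit gave 0.07 on the log2 scale (standard error 0.02, adjusted p = 0.259). *Col1a2* had 14.28, 14.29 and 14.01 at 24 h and 14.28, 14.29 and 14.02 in control cells, a difference of -0.00 on the log2 scale (adjusted p = 0.904). This probe set ranked 1 to 3 in signal on every array, 0.00 to 0.13 below the highest value, and whether that hides a change was not tested. Its other probe sets had 0.01 and 0.17 (adjusted p = 0.249 for the second).

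Where a fibrillar collagen had several probe sets, they did not always give the same call. *Col27a1*, a fibrillar collagen of cartilage, was not called on the brighter probe set (0.12, adjusted p = 0.316), which had 8.89, 9.05 and 8.18 at 24 h and 8.67, 8.92 and 8.16 in control cells. It was higher on the other one (0.40, standard error 0.04, adjusted p = 0.00454). That probe set had 8.11, 8.20 and 7.98 at 24 h and 7.70, 7.74 and 7.65 in control cells, with no overlap. *Col5a2*, a chain of type V collagen, had 0.01 on a probe set of mean 13.3 and 0.11 (adjusted p = 0.0464) on a second of mean 11.3. *Col3a1*, the chain of type III collagen, had 0.04 and 0.17 (adjusted p = 0.637 and 0.0516). Over the family 8 genes had a called probe set of any kind, 7 of them higher, and 10 of 82 probe sets were higher and 1 lower (13.4%). Of the 40 other probe sets 14 had the opposite sign of the first, and none of these was called. The remaining fibrillar members, *Col5a1*, *Col5a3* and *Col11a2*, had log2 fold changes of -0.04, -0.07 and -0.17.

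**Figure D3:**
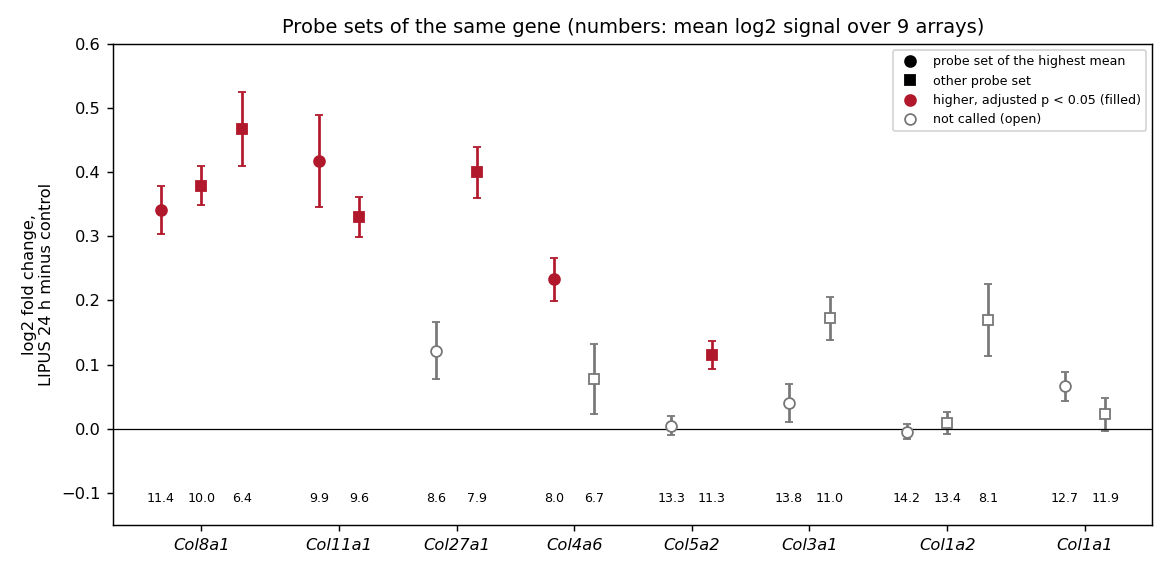
Log2 fold change at 24 h against control for each probe set of 8 collagen genes, with standard errors from limma, filled where the adjusted p is under 0.05, and with the mean log2 signal over the 9 arrays printed below. The 3 probe sets of *Col8a1* and both of *Col11a1* are higher, while for *Col27a1* and *Col5a2* the dimmer probe set is called and the brighter one is not.

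Of the 9 network collagens 2 rose and none fell at 24 h (22.2%, against 4.14% of named genes and 7.38% of those in the upper 40% of signal, where 6 of the 9 lay). Their median was 0.09, with 8 of 9 above 0, and by experiment it was 0.17, 0.00 and 0.03. *Col8a1*, a short-chain collagen of vessel walls and of Descemet's membrane in the cornea, had 11.59, 11.77 and 11.36 at 24 h and 11.30, 11.50 and 10.90 in control cells. It was higher in each experiment and the groups overlapped (log2 fold change 0.34, standard error 0.04, adjusted p = 0.0061, ratio 1.27 ± 0.0944, SD, n = 3). The other probe sets of *Col8a1* had 0.38 (adjusted p = 0.00197) and 0.47 (adjusted p = 0.00978), so that all 3 were higher. Its first probe set lost the call without array 1 of the 24 h group (0.36, adjusted p = 0.0629), of the 6 h group (0.34, adjusted p = 0.0501) or of the control (0.35, adjusted p = 0.0844), and without experiment 1 (0.36, adjusted p = 0.408) or 2 (0.38, adjusted p = 0.0961).

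*Col4a6*, a chain of type IV collagen of basement membranes, had the smallest called rise, with 8.29, 8.36 and 7.85 at 24 h and 8.08, 8.13 and 7.60 in control cells. At 6 h it had 8.14, 8.23 and 7.62. The rise at 24 h was 0.21 to 0.25 in each experiment, and the fit 0.23 (standard error 0.03, adjusted p = 0.0151). Its second probe set had 0.08 (adjusted p = 0.626). The call was lost without arrays 1 or 2 of the 24 h group (0.24, adjusted p = 0.0669 and 0.091), array 1 of the 6 h group (0.23, adjusted p = 0.0546), arrays 1 or 2 of the control (0.24 and 0.22, adjusted p = 0.0927 and 0.105) and experiments 1 or 2 (0.24 and 0.23, adjusted p = 0.305 and 0.323). *Col4a1* and *Col4a2*, which form the common type IV molecule, were above control in all 3 experiments at 0.13 and 0.12 and did not pass (adjusted p = 0.131 and 0.203). *Col4a3*, *Col4a4*, *Col4a5*, *Col8a2* and *Col10a1*, the collagen of hypertrophic cartilage, lay between -0.06 and 0.09.

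Of the FACIT collagens 1 of 9 rose at 24 h (11.1%, against 4.14% of named genes), and the median of the class was -0.02. *Col16a1*, which is found in the matrix of skin and cartilage, had 9.88, 9.86 and 9.56 at 24 h and 9.36, 9.44 and 9.41 in control cells. At 6 h it had 9.44, 9.45 and 9.42. The 24 h and control groups did not overlap, and the rise was smaller in experiment 3 (0.16) than in experiments 1 and 2 (0.53 and 0.42). The fitted difference was 0.37 ± 0.07 on the log2 scale (standard error, adjusted p = 0.0415) and the ratio 1.3 ± 0.167 (SD, n = 3). *Col16a1* has 1 probe set. The call held with 2 of 9 arrays left out (array 3 of the 24 h group or of the control) and without experiment 3. With the others left out the fold change was 0.29 to 0.37 and the adjusted p reached 0.281 for an array (array 1 of the control) and 0.534 for an experiment (experiment 1). The other 8 members, *Col9a1*, *Col9a2*, *Col9a3*, *Col12a1*, *Col14a1*, *Col19a1*, *Col20a1* and *Col22a1*, had fold changes of -0.07 to 0.06, and 7 of the 9 were below the upper 40% of signal.

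No transmembrane collagen was called at 24 h, and the median of the 4 was 0.01. The largest value was that of *Col17a1*, a collagen of the attachment plaques of epithelial cells, at 0.15 (standard error 0.10, adjusted p = 0.608). It had 5.01, 4.67 and 4.50 at 24 h and 4.89, 4.33 and 4.50 in control cells, and the groups overlapped. *Col13a1*, *Col23a1* and *Col25a1* had -0.13, 0.05 and -0.04, and 1 of the 4 was in the upper 40% of signal. Any difference between this class and the others was not tested.

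The remaining classes had no call at 24 h either. The 5 beaded filament collagens were all slightly above 0, at 0.02 to 0.08, the largest being *Col6a4* (standard error 0.11, adjusted p = 0.789) with 4.16, 4.46 and 4.02 at 24 h and 3.77, 4.46 and 4.17 in control cells. *Col7a1*, which anchors the basement membrane of skin, had 5.98, 6.10 and 6.24 at 24 h and 6.15, 6.10 and 6.39 in control cells (-0.11, standard error 0.06, adjusted p = 0.505). *Col18a1*, the source of endostatin, had 8.18, 8.17 and 7.92 at 24 h and 8.34, 8.19 and 7.92 in control cells (-0.06, standard error 0.04, adjusted p = 0.607). In these genes the value of at least 1 experiment was the same in both groups. *Col15a1*, the other multiplexin, had -0.01. *Col26a1* had 3.06, 3.53 and 2.75 at 24 h and 2.99, 3.53 and 3.06 in control cells (-0.08, standard error 0.11, adjusted p = 0.807).

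At 6 h after LIPUS no collagen was called against control, and none of the 45037 probe sets was (0%, smallest adjusted p 0.959 from limma). Small changes can be missed by this test. At an unadjusted p under 0.05 from limma there were 4 of the 42 collagen genes and 1575 of the 45037 probe sets. Those genes were *Col1a1*, *Col6a3*, *Col12a1* and *Col17a1*, named after their values were seen, with log2 fold changes of 0.05, 0.13, 0.22 and 0.27. *Col12a1*, a FACIT collagen on type I fibrils, had 11.68, 11.99 and 11.27 at 6 h and 11.32, 11.79 and 11.16 in control cells, which is 0.35, 0.20 and 0.11 above the control of each experiment, with overlap. At 24 h its signal was 11.29, 11.76 and 11.15. The median of the family at 6 h was 0.02, that of the fibrillar members 0.02, of the network members 0.06, of the FACIT members -0.03 and of the transmembrane members -0.06. By experiment 8 of the 42 genes were higher and 1 lower in all 3. Over all probe sets these shares were 6.48% and 4.24%, and among 18193 named genes the counts were 1437 and 865. In the upper 40% of signal they were 8 and 0 of 24 collagens, against 1339 and 414 of 9998 named genes. The 6 h and control groups overlapped in all 42 genes, and they were apart in 0.273% of all probe sets.

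Set against 6 h, the cells at 24 h had 2 collagens higher and 1 lower, which is 3 of 42 genes, against 2.02% of all probe sets called (1.14% higher, 0.879% lower), 3.24% of named genes and 5.76% of those in the upper 40% of signal. *Col2a1* fell by 0.84 (standard error 0.03, adjusted p = 8.7e-05). *Col24a1* rose by 0.64 (standard error 0.08, adjusted p = 0.0121), with 4.83, 5.39 and 4.50 at 24 h and 4.41, 4.68 and 3.71 at 6 h. *Col8a1* rose by 0.27 (standard error 0.04, adjusted p = 0.0167), with 11.59, 11.77 and 11.36 at 24 h and 11.36, 11.52 and 11.03 at 6 h. The other 3 genes that rose against control had 0.35 (*Col11a1*, adjusted p = 0.0719), 0.33 (*Col16a1*, adjusted p = 0.0735) and 0.18 (*Col4a6*, adjusted p = 0.0527) against 6 h. The second probe sets of *Col11a1* (0.33, adjusted p = 0.00421) and *Col27a1* (0.32, adjusted p = 0.0114) were higher. *Col12a1* had -0.24 against 6 h (adjusted p = 0.0726). Both comparisons share the arrays at 24 h.

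The genes that make and handle collagen were followed by list, each with 1 probe set per gene, and their counts stand against 4.14% of named genes called and 7.38% of those in the upper 40% of signal. Of 19 folding and modifying enzymes measured, 3 rose at 24 h and none fell (15.8%, with 18 of the 19 in the upper 40%), with a median of 0.09. *Fkbp7* and *Fkbp14*, prolyl isomerases of the endoplasmic reticulum, rose by 0.29 (adjusted p = 0.00143) and 0.15 (adjusted p = 0.0352), and *P4ha1*, which hydroxylates prolines of the chains, by 0.18 (adjusted p = 0.025). Of 12 genes of procollagen secretion *Sec24d*, a coat protein of transport vesicles, rose by 0.14 (adjusted p = 0.0217), and the median was 0.03. That is 8.33% of a list with 11 of 12 genes in the upper 40%, a share near the background. Of 14 genes of processing and cross-linking 2 fell and none rose (14.3%, with 9 of the 14 in the upper 40%, and 0.933% of all probe sets lower), with a median of -0.01. *Lox*, the oxidase that starts the cross-links of fibrils, had 11.89 to 12.14 on the arrays at 24 h and 12.30 to 12.37 on control arrays, and fell by 0.31 with no overlap (adjusted p = 0.00477). *Pcolce2*, which speeds the removal of the C-terminal propeptide, fell by 0.18 (adjusted p = 0.0166). All adjusted p-values are from limma.

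The list of collagen degradation had the most calls, 5 of 12 higher and none lower, with a median of 0.13. The 12 include *Timp1*, *Timp2* and *Timp3*, which inhibit metalloproteinases and were not called, so the list is not made of degrading enzymes alone. This is 41.7% of the list, against 4.14% of named genes and 7.38% of those in the upper 40% of signal, where 9 of the 12 lay. *Mmp13*, the collagenase of bone and cartilage, had 8.65, 8.78 and 8.36 at 24 h and 7.50, 7.54 and 6.75 in control cells, and rose by 1.34 with no overlap (adjusted p = 0.000908). The study chose *Mmp13* on these arrays, so it is not independent evidence of the list's direction. *Fap*, a serine protease that cleaves denatured collagen, rose by 0.89 (adjusted p = 0.00726) at a low signal, *Mmp9*, a gelatinase, by 0.47 (adjusted p = 0.00457), and *Ctsk*, a lysosomal collagenase, by 0.40 (adjusted p = 0.0017). *Mmp2*, another gelatinase and the fifth call, named after its value was seen, rose by 0.21 (adjusted p = 0.0136). Of 10 receptors *Itga1*, a collagen-binding alpha integrin chain, rose by 0.18 (adjusted p = 0.0403), and of 11 transcription factors of collagen genes *Zeb1*, a repressor, rose by 0.20 (adjusted p = 0.0226). These shares, 10% and 9.09%, are near the 7.38% of named genes in the upper 40%. Over the 10 receptors the log2 fold changes ran from -0.24 to 0.20, with 3 above control and 2 below it in all 3 experiments. The study lists a probe set of *Ddr1*, another of these receptors, among those lower at 24 h. At 6 h no member of these 6 lists was called. Without experiment 1 none of these 6 lists had a call at 24 h, and without experiment 2 there was 1, in degradation. Over all probe sets 0 and 49 were called in those fits, against 1229 in the main fit. The calls of *Sec24d* and *Itga1* were also lost without experiment 3, where 2 other receptors were called, both lower. No test was made of whether a list differed from other genes.

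**Figure D4:**
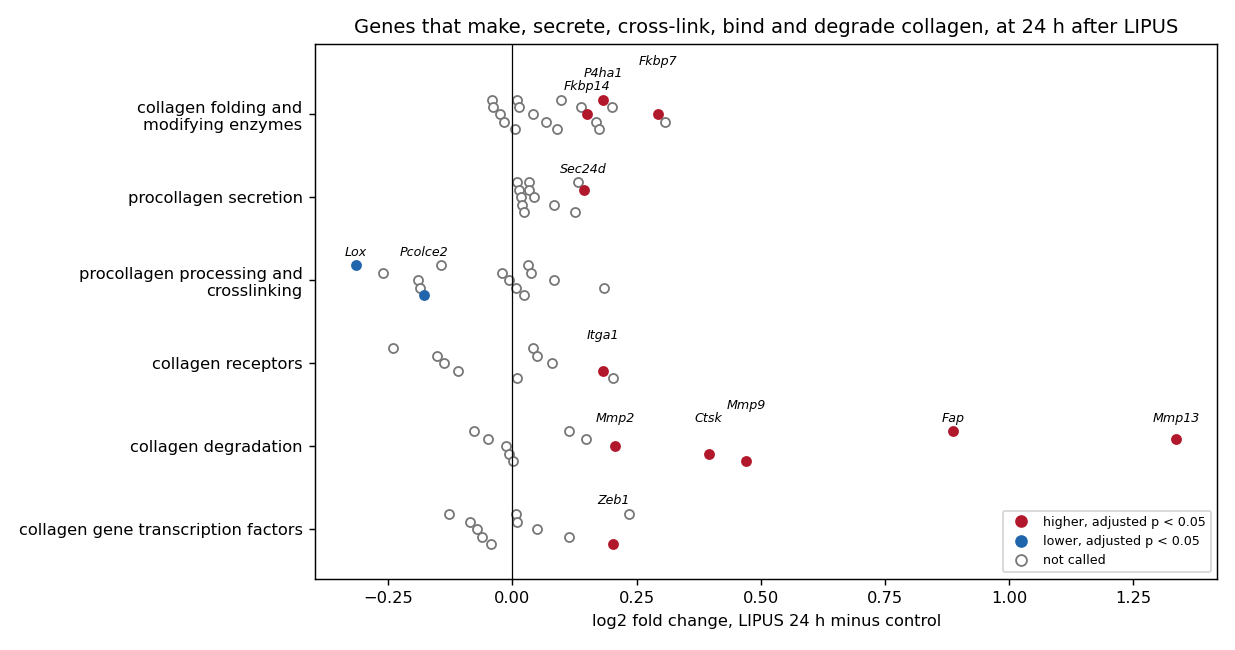
Log2 fold change at 24 h against control for each measured gene of 6 lists, 1 point per gene, filled where the adjusted p from limma is under 0.05 and named. *Mmp13* and *Fap* lie farthest to the right in the degradation list, which also holds the inhibitors *Timp1*, *Timp2* and *Timp3*. *Lox* and *Pcolce2* are the filled points left of 0.

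The profiles of the collagens with the largest rise and fall were compared with those of the named genes in the upper 40% of signal, by Pearson's r over the 9 arrays after removing the mean of each experiment. The 5 closest to *Col24a1* were *Dmp1*, *Vamp4*, *Ephb6*, *Cables1* and *Dkk2* (0.993 to 0.99). The 5 closest to *Col2a1* were *Fxyd5*, *Parp3*, *Id1*, *Krt14* and *Cdca2* (0.998 to 0.997). The values are a description, since the arrays share their experiments and the genes were picked for likeness.

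The calls of the collagens rest on pairing by experiment. Without the block no collagen was called at 24 h against control (0 of 42), and the adjusted p of *Col2a1* was 0.751, with the same fold changes. With only the 6 arrays of 24 h and control in the fit the count was also 0 and the adjusted p of *Col2a1* 0.0579. Over all probe sets 1 was called without the block and 5 with those arrays alone, against 1229 in the main fit. Without the variance trend *Col4a6* (adjusted p = 0.0501), *Col11a1* (0.086) and *Col16a1* (0.103) were no longer called, and with quantile normalization *Col16a1* was not (0.0505). No alternative turned the direction of any of the 6 called genes.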

How the data were processed

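RNA of MC3T3-E1 cells was hybridized to whole-genome mouse oligonucleotide arrays, 3 each at 24 h after LIPUS, at 6 h after LIPUS and after mock treatment. The authors deposited log2 signals made by RMA, whose version and settings are not given in the sources used here, and these were used without further transformation. The collagen genes, their classes and the gene lists were chosen with earlier results of these data known. Gene symbols are those of the platform annotation, brought up to date by gene identifier, and probe sets with several symbols were not named. The 64 control probe sets among 45101 were dropped.

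Groups were compared in limma (version 3.58.1, R 4.3.3). One linear model held all 9 arrays, with the experiment as a block, and variances were moderated with a trend over signal. P-values were adjusted by Benjamini-Hochberg over 45037 probe sets, at a threshold of 0.05. Numbers pair the arrays by the check made on deviations from group means, which correlated at 0.56 to 0.902 for each pair of one number and at -0.714 to 0.221 across numbers. The study describes its array work as repeated experiments on a cell line. P-values measure the spread between these arrays, and 3 arrays per group limit precision. The procedure was tested on simulated data with known changes at 24 h. The simulated noise was normal, without the identical values seen in experiments 2 and 3, so the rates may not hold for the real arrays. The procedure recovered 10 of 50 probe sets changed 1.2-fold, 31 of 50 changed 1.5-fold and 46 of 50 changed 2-fold. It also called 5 probe sets that had not been changed. Genes that did not pass may therefore have changed by a small amount. Values were given for collagens called in any comparison, for both type I chains, for the largest change in each class without a call, and for up to 4 called members of each list. The upper 40% of mean signal served to mark dim probe sets, since detection calls were not used here. Promoters are RefSeq windows on GRCm38.p6. Alternatives covered the block, the trend, the probe sets and arrays included, normalization, the probe set rule, the test, a 1.5-fold rule and leaving out arrays.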

Additional observations from a re-analysis of the deposited data

Results flagged for a closer look

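For 3 collagens the change at 24 h differed from that at 6 h, which the comparison of 24 h with 6 h by limma tests directly. That is 7.14% of the 42 genes, against 3.24% of named genes. In the upper 40% of signal the share was 8.33% of collagens, near the 5.76% of named genes. *Col2a1* changed by -0.82 at 24 h and 0.02 at 6 h, a difference of -0.84 on the log2 scale (adjusted p = 8.7e-05). *Col24a1* changed by 0.67 at 24 h and 0.03 at 6 h, a difference of 0.64 (adjusted p = 0.0121). *Col8a1* changed by 0.34 at 24 h and 0.07 at 6 h, a difference of 0.27 (adjusted p = 0.0167). Each difference had the same sign in all 3 experiments. The changes at both times share the control arrays.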

How the results depend on the processing

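Precision was limited by 3 arrays per group. Many values in experiments 2 and 3 were identical between groups, and the effect of this on the calls was not tested. The count of collagens called at 6 h was 0 under every alternative run, and no named collagen that was called turned its direction. Against the main count of 6 collagens at 24 h against control, the fit without the replicate block gave 0, eBayes without trend 3, the 6 arrays alone 0, the methods' t-test 2 unadjusted and 0 after Benjamini-Hochberg adjustment, the paired t-test 0, and a ratio of at least 1.5 in each experiment 2 (*Col2a1* and *Col24a1*). Leaving out an array or an experiment gave 0 to 6. The count was 0 without experiment 1, 1 without experiment 2 or control array 1, 2 without array 1 or 2 of the 24 h group or array 1 of the 6 h group, and 3 without control array 2. Calls over all 45037 probe sets fell as well. They were 1229 in the main fit, 0 without experiment 1, 49 without experiment 2, 1 without the block and 5 with the 6 arrays alone. Both t-tests gave 0 over all probe sets after adjustment. Counts of 5 or 6 came from the highest 40% of probe sets, quantile normalization, median centring and the mean of the probe sets of a gene. For 24 h against 6 h (3 collagens) the fit without the block gave 0, the highest 40% of probe sets 6, quantile normalization 5, the 6 arrays alone 1, the mean of probe sets 6, the methods' t-test and the paired t-test after adjustment 0 each, and the ratio of 1.5 in each experiment 1. Leaving out an array or an experiment gave 0 to 6 there. The count was 0 without experiment 1, 1 without experiment 2, array 2 of the 24 h group, array 1 or 2 of the 6 h group or control array 1, 5 without control array 3 and 6 without experiment 3. Over all probe sets 909 were called there in the main fit, 0 without experiment 1 and 44 without experiment 2.

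Without the replicate block none of the pathway lists had a call at 24 h (0 each). With only the highest 40% of probe sets the folding enzymes had 6 calls, secretion 2 and receptors 2, and with quantile normalization the folding enzymes had 1 and receptors 0. Leaving out an experiment gave 0 to 4 calls for folding enzymes, 0 for secretion, 0 to 2 for processing and cross-linking, 0 to 2 for receptors (the 2 without experiment 3 were both lower and did not include *Itga1*, whose call was lost without each experiment), 0 to 5 for degradation and 0 to 1 for transcription factors. Without experiment 1 all 6 lists had 0 calls, and without experiment 2 degradation had 1 and the others 0. In those fits 0 and 49 of all probe sets were called. The cause was not tested.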
